A study of Homo sapiens with 3 samples.

Results

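The annexin family is described here by a fixed list of 10 members, ANXA1 to ANXA8, ANXA10 and ANXA11, found by symbol among the 18856 genes listed in at least 1 of 3 low-input RNA-seq libraries. The list was chosen with earlier results of these data known. All 10 were listed in all 3 libraries, and the further family genes ANXA9 and ANXA13 are given apart from them. Each library started from about 10 pg of polyA+ mRNA that had been diluted from bulk mRNA, and each condition had 1 library. The libraries called HBE by LIEA and A549 by LIEA were made with the low-input equal-amplification method, in which mRNA fragments were ligated to adapters before 18 cycles of PCR and sequenced on a semiconductor (Ion Torrent) instrument. The library called HBE by Smart-seq2 was made by oligo-dT priming, template switching and 18 cycles of PCR on full-length cDNA, and was sequenced on an Illumina instrument.

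HBE is a human bronchial epithelial cell line and A549 is a lung adenocarcinoma cell line. Neither line carried a treatment or an engineered allele in the labels. With 1 library for each condition there was no spread between replicates, so no difference below was tested. The intervals are 95% counting intervals on the reads and cover counting error only, because reads copied by PCR are not independent molecules. The totals were 4605855 mapped reads for HBE by LIEA, 4154060 for A549 by LIEA and 9845150 for HBE by Smart-seq2. Levels are given as log2 rpkM, reads per kilobase of transcript and per 1000000 mapped reads, so that they can be set side by side between genes. A difference is counted for genes with at least 10 reads in at least 1 of the libraries compared, with values under 3 reads set to 3 reads.

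Annexins are cytosolic proteins that bind negatively charged membrane phospholipids when calcium rises. Each has a conserved core of repeated calcium-binding folds and a variable N-terminal tail, and the tail recruits partners such as the S100 proteins. In airway epithelium they are known for roles in exocytosis, in membrane repair and in the control of inflammation.

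The coding starts of ANXA1 and ANXA2 are shown because they encode the tails that set these highly expressed members apart from each other. ANXA1 lies at chr9:75766781-75785309 on the plus strand and ANXA2 at chr15:60639333-60695082 on the minus strand of GRCh37. The first 45 coding bases, read from GENCODE release 44 transcripts on GRCh37, carry no capitals because no base is singled out. The tail of ANXA1 binds S100A11 and that of ANXA2 binds S100A10.
ANXA1: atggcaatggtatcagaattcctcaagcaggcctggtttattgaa
ANXA2: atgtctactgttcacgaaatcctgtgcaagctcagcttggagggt

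ANXA8, at chr10:48255204-48279200 on the plus strand, has a near-identical copy, ANXA8L1, at chr10:47157983-47174093 on the minus strand. Both have 981 coding bases, and the sequences differed at 2 positions, A94C and T939C, where ANXA8 is given before the position, ANXA8L1 after it, and positions are counted from 1 at the start of the coding sequence. They were thus 99.8% identical. The stretches around both positions, from the same transcripts, are shown because only reads that cover such a base can tell the copies apart within the coding sequence. The capital marks the differing base, first at coding bases 64 to 123 and then at 909 to 968.
ANXA8: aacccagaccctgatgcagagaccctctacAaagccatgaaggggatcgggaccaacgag
ANXA8L1: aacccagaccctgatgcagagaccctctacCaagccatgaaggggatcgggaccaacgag
ANXA8: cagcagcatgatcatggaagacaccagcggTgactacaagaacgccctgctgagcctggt
ANXA8L1: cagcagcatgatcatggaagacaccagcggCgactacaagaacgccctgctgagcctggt

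Of the 939 coding windows of 43 nt in ANXA8, the shortest read length kept for Ion Torrent, 853 (90.8%) also occurred in ANXA8L1. The division of reads between ANXA8 and ANXA8L1 is therefore uncertain. For ANXA2 and its processed pseudogene ANXA2P2, the windows also found in the copy were 624 of 975 (64%).

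The annexins together took 9464 reads in HBE by LIEA, 19982 in A549 by LIEA and 41303 in HBE by Smart-seq2. These were 0.205% (exact binomial interval 0.201 to 0.210), 0.481% (0.474 to 0.488) and 0.420% (0.415 to 0.424) of mapped reads. Within HBE the share was lower by LIEA than by Smart-seq2, and by LIEA it was higher in A549 than in HBE, in each case by more than the counting intervals. Summed over the family, rpkM was 1115 in HBE by LIEA, 2818 in A549 by LIEA and 2458 in HBE by Smart-seq2.

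**Figure D1:**
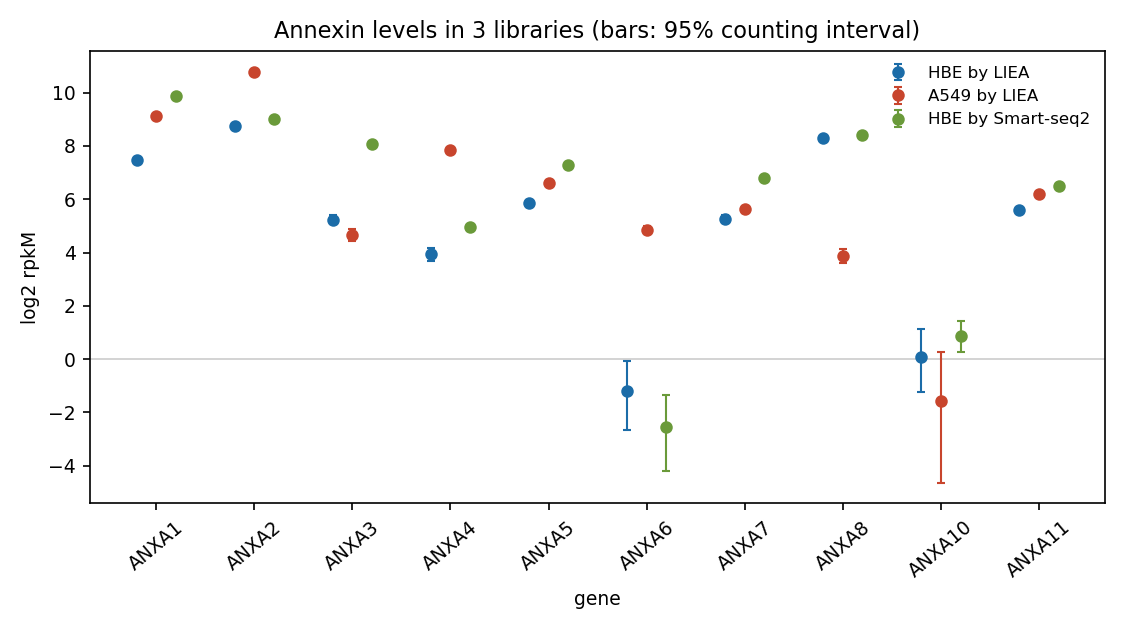
Log2 rpkM (vertical axis) of the 10 annexins (horizontal axis) in HBE by LIEA (blue), A549 by LIEA (red) and HBE by Smart-seq2 (green). Points are single libraries and bars are 95% counting intervals; ANXA8 and ANXA6 have the widest gaps between the LIEA libraries, in opposite directions, and ANXA10 is low throughout.

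ANXA2, ANXA8 and ANXA1 led the family in HBE. In HBE by LIEA the order of levels was ANXA2, ANXA8, ANXA1, ANXA5, ANXA11, ANXA7, ANXA3, ANXA4, ANXA10 and ANXA6. In that order the counting intervals of the neighbours ANXA7 and ANXA3, and of ANXA10 and ANXA6, overlapped. In A549 by LIEA the order was ANXA2, ANXA1, ANXA4, ANXA5, ANXA11, ANXA7, ANXA6, ANXA3, ANXA8 and ANXA10, with overlapping intervals for ANXA6 and ANXA3. In HBE by Smart-seq2, ANXA1 came before ANXA2 and ANXA8, followed by ANXA3, ANXA5, ANXA7, ANXA11, ANXA4, ANXA10 and ANXA6, and no neighbours overlapped.

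**Figure D2:**
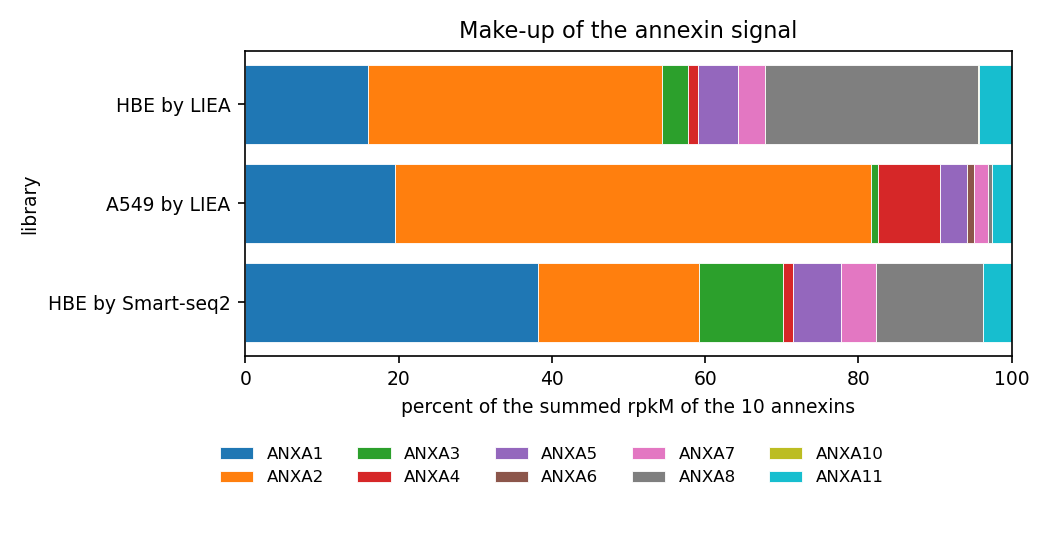
Percent of the summed rpkM of the 10 annexins (horizontal axis) taken by each member (colours) in the 3 libraries (bars). ANXA2 takes 62.1% in A549 by LIEA, where the ANXA8 segment shrinks to 0.518%, and ANXA1 takes 38.1% in HBE by Smart-seq2.

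The makeup of the family signal followed these orders, as the stacked plot of its summed rpkM shows. ANXA2 was 38.3% of the summed rpkM in HBE by LIEA, 62.1% in A549 by LIEA and 21.1% in HBE by Smart-seq2. For ANXA8 the shares were 27.9%, 0.518% and 13.9% in the same order. For ANXA1 they were 16.0%, 19.5% and 38.1%. ANXA1, ANXA2 and ANXA8, the leading members in HBE, together held 82.2% in either LIEA library and 73.2% in Smart-seq2. Their similar total in the LIEA libraries was made up of different proportions of these members. In A549 by LIEA, ANXA8 was at place 9 in the family and ANXA4, at place 3, held 8.09%.

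A549 against HBE, both by LIEA, addresses which annexins differed between the cell lines under the same method. ANXA6, ANXA4, ANXA2 and ANXA1 were at least 2-fold higher in A549 and ANXA8 was at least 2-fold lower. These are 4 and 1 of the 9 members counted, beside 20.3% of all 13624 genes counted that were at least 2-fold higher and 20.9% that were at least 2-fold lower. The other 4 counted members, ANXA5, ANXA11, ANXA7 and ANXA3, lay within 2-fold. The median log2 difference of the 9 members was 0.77, against -0.13 over all genes counted, and 7 members were above 0 and 2 below. Of the 7, ANXA7 was the lowest at 0.38, and 33.3% of all genes counted lay at or above that value.

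**Figure D3:**
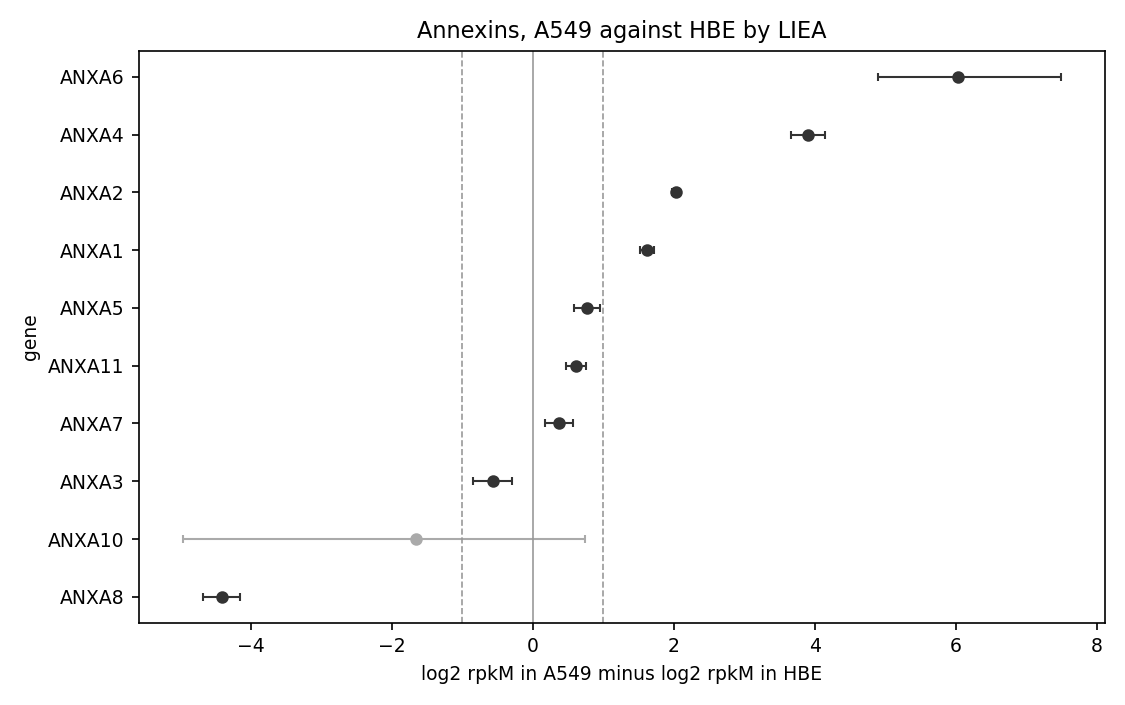
Log2 rpkM in A549 by LIEA minus log2 rpkM in HBE by LIEA (horizontal axis) for the 10 annexins (vertical axis). Points are differences between single libraries, bars are 95% counting intervals, dashed lines mark 2-fold, and the grey point is ANXA10, which had under 10 reads in either library; ANXA6 (6.03) and ANXA8 (-4.41) lie at the ends.

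ANXA2, which forms a complex with S100A10 at the plasma membrane, had a log2 rpkM of 8.74 in HBE by LIEA (3266 reads), 10.77 in A549 by LIEA (12058 reads) and 9.02 in HBE by Smart-seq2 (8471 reads). By rpkM it was at rank 26 of all genes in A549 by LIEA, against rank 122 in HBE by LIEA and rank 114 in HBE by Smart-seq2. By LIEA the A549 value stood above the HBE value by a log2 difference of 2.03 (interval 1.98 to 2.09), or 4.09-fold.

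ANXA1, a glucocorticoid-induced protein that limits inflammation through formyl peptide receptors, had a log2 rpkM of 7.48 in HBE by LIEA (1152 reads), 9.10 in A549 by LIEA (3199 reads) and 9.87 in HBE by Smart-seq2 (12911 reads). By LIEA the A549 level was 3.08-fold the HBE level, a log2 difference of 1.62 (1.52 to 1.72). Within HBE the ANXA1 level was 5.24-fold lower by LIEA than by Smart-seq2.

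ANXA6 and ANXA4 had the largest positive differences. ANXA6, the member with a duplicated core, which acts in endocytosis and as a scaffold for signalling proteins, lies at chr5:150480267-150537376 on the minus strand and has a coding sequence of 2019 bases, against 1017 for ANXA2. It had 6 reads in HBE by LIEA (log2 rpkM -1.20), 354 in A549 by LIEA (4.83) and 5 in HBE by Smart-seq2 (-2.56). ANXA6 was near the lowest detectable level in HBE by either method and was quantified, with at least 10 reads, in A549 only. The log2 difference between the LIEA libraries was 6.03 (4.90 to 7.49), or 65.4-fold, and it ranked 127 from the top of the 13624 genes counted. Because the HBE level rests on 6 reads, its size is loosely determined: on the log2(rpkM + 1) scale it was 4.36.

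ANXA4, a protein enriched in epithelia that associates with secretory membranes, lies at chr2:69871557-70054244 on the plus strand. Its log2 rpkM was 3.94 in HBE by LIEA (151 reads), 7.83 in A549 by LIEA (2029 reads) and 4.94 in HBE by Smart-seq2 (647 reads). In rpkM these levels were 15.3, 228 and 30.7. The log2 difference between the LIEA libraries was 3.90 (3.66 to 4.15), or 14.9-fold. Within the family ANXA4 took place 8 in HBE by LIEA and place 3 in A549 by LIEA.

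ANXA8, a member typical of stratified and basal epithelia, ran the other way. Its log2 rpkM was 8.28 in HBE by LIEA (3114 reads), 3.87 in A549 by LIEA (132 reads) and 8.42 in HBE by Smart-seq2 (7335 reads). The HBE libraries were close to each other, and by LIEA the HBE level was far above that of A549. The log2 difference between the LIEA libraries was -4.41 (-4.67 to -4.16), 21.3-fold lower in A549, and it ranked 226 from the bottom of the genes counted. The copy ANXA8L1, with 242 reads (log2 rpkM 4.65) in HBE by LIEA, 15 (0.78) in A549 by LIEA and 245 (3.57) in HBE by Smart-seq2, had a log2 difference of -3.86 in the same direction. ANXA8L1 was 8.06%, 11.8% and 3.46% of the ANXA8 rpkM in these libraries, and adding it to ANXA8 gave a difference of -4.36. The shift between the cell lines thus had the same direction and nearly the same size for ANXA8 alone and for the sum of the copies. Other divisions of the reads between the copies were not tried.

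Between the cell lines by LIEA, markers of basal airway epithelium moved with ANXA8. Between the methods in HBE they ranged from -4.10 for KRT6A to 1.13 for TP63, against -0.14 for ANXA8. The summed rpkM of KRT5, KRT14, KRT17, KRT6A and TP63 was 1706 in HBE by LIEA, 9.07 in A549 by LIEA and 6464 in HBE by Smart-seq2, and all 5 were at least 2-fold lower in A549 by LIEA, KRT14 not being listed there. Alveolar type II markers were low in both cell lines, with SFTPC and SFTPA1 not listed in any library. SFTPB had 21 reads in HBE by LIEA, 20 in A549 by LIEA and 49 in HBE by Smart-seq2. NKX2-1 had 1 read in HBE by LIEA and 4 in HBE by Smart-seq2, and was not listed in A549. The simple epithelial markers KRT8, KRT18, KRT19, EPCAM and CDH1 summed to an rpkM of 1700 in HBE by LIEA, 8530 in A549 by LIEA and 3442 in HBE by Smart-seq2. The higher sum in A549 came from KRT8 and KRT18, with log2 differences of 2.97 and 2.53 between the LIEA libraries, while KRT19 was at -0.46, CDH1 at -1.56 and EPCAM at -2.97. For leukocytes (PTPRC and CD74) the sums were 87.7, 0.232 and 26.7, with PTPRC at 0 to 3 reads. For endothelium (PECAM1 and CDH5) they were 11.8, 0.487 and 10.9, and CDH5 was not listed in A549. For fibroblasts (COL1A1, COL1A2 and DCN) they were 6.41, 3.78 and 1.46, with COL1A2 and DCN not listed in any library. The part of these cell type markers in the annexin differences was not tested, and in RNA pooled from many cells fewer cells of a type and less RNA per cell cannot be told apart.

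By the Euclidean distance of log2 rpkM over the 3 libraries, among 10919 genes with at least 10 reads in each, the genes most like ANXA8 were SERINC2 (distance 0.794), IFITM1 (0.913) and RHOD (1.33). SERINC2 had log2 rpkM values of 8.41, 3.80 and 7.64 in HBE by LIEA, A549 by LIEA and HBE by Smart-seq2. The distance rests on 3 libraries and is a description of them. No such list was made for ANXA6, which lacked 10 reads in the HBE libraries.

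ANXA5, ANXA11, ANXA7 and ANXA3 differed by less than 2-fold between the cell lines. ANXA5, which coats exposed phosphatidylserine and is used as a probe of dying cells, had a log2 rpkM of 5.85 in HBE by LIEA (425 reads), 6.62 in A549 by LIEA (653 reads) and 7.28 in HBE by Smart-seq2 (2450 reads). Its log2 difference of A549 minus HBE by LIEA was 0.77 (0.59 to 0.95). ANXA11, which links RNA granules to lysosomes, had levels of 5.58 (676 reads), 6.19 (932 reads) and 6.51 (2757 reads) in the same order of libraries, and a difference of 0.61 (0.47 to 0.76).

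ANXA7, also called synexin, which promotes membrane fusion in secretory cells, had a log2 rpkM of 5.25 in HBE by LIEA (387 reads), 5.63 in A549 by LIEA (453 reads) and 6.80 in HBE by Smart-seq2 (2416 reads). It differed by 0.38 (0.18 to 0.58) between the LIEA libraries. ANXA3, known as an abundant protein of neutrophils, had levels of 5.23 (280 reads), 4.66 (170 reads) and 8.07 (4285 reads) and was the remaining member below 0, at -0.57 (-0.85 to -0.29). All 4 intervals excluded 0 on counting error. Without replicates, no difference between these single libraries, of this or a larger size, can be set against the spread that replicates might have.

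ANXA10, a gene of gastric epithelium, was low everywhere, with 7 reads in HBE by LIEA (log2 rpkM 0.07), 2 in A549 by LIEA (-1.59) and 26 in HBE by Smart-seq2 (0.87). It was not counted between the cell lines, where the ratio of 2 to 7 reads gave a log2 difference of -1.66 with an interval of -4.96 to 0.73. At this depth a difference of ANXA10 between the lines was not detectable.

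LIEA against Smart-seq2, both in HBE, addresses how far the level of an annexin depended on the method within the same cell line. This comparison shares the LIEA library of HBE with the one between the cell lines, so a deviation of that library would enter both. All 9 members counted were lower by LIEA in rpkM, but the interval of ANXA10 (-2.25 to 0.45, on 7 and 26 reads) included 0. The highest of the 9 was ANXA8 at -0.14, and 44.9% of all genes counted lay at or below that value. The sign turned for ANXA8 on rescaling to TPM and for ANXA2 and ANXA8 on correction for transcript length. Of the 9 members 5, namely ANXA3, ANXA1, ANXA7, ANXA5 and ANXA4, were lower by at least 2-fold. Over all 13531 genes counted, 21.7% were at least 2-fold lower and 28.4% at least 2-fold higher, and no annexin was at least 2-fold higher. The median log2 difference was -1.003 over the 9 members and 0.04 over all genes counted.

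ANXA3 differed most between the methods. From the levels above (5.23 by LIEA, 8.07 by Smart-seq2), its log2 difference of LIEA minus Smart-seq2 was -2.84 (-3.02 to -2.67), 7.16-fold lower by LIEA. ANXA1 followed at -2.39 (-2.48 to -2.30), or 5.24-fold. ANXA7 was at -1.55 (-1.70 to -1.39) and ANXA5 at -1.43 (-1.58 to -1.28). These 4 members lay past 2-fold over their whole counting interval, while ANXA4 at -1.003 (-1.27 to -0.75) lay on the line of 2-fold. Against genes of similar transcript length ANXA5 was at -0.97 and ANXA4 at -0.67, which left ANXA3, ANXA1 and ANXA7 past 2-fold.

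The remaining members stayed within 2-fold. ANXA11 was at -0.93 (-1.06 to -0.81), ANXA10 at -0.80 (-2.25 to 0.45), ANXA2 at -0.28 (-0.34 to -0.22) and ANXA8 at -0.14 (-0.20 to -0.08). The highly expressed ANXA2 and ANXA8 therefore differed by less than 2-fold between the methods, whereas ANXA1, also among the highest members, did not. On rescaling to TPM the ANXA8 difference became 0.06, and against genes of similar transcript length ANXA2 was at 0.18 and ANXA8 at 0.20. ANXA6, with 6 reads by LIEA and 5 by Smart-seq2, was not counted, and its log2 difference of 1.36 had an interval of -0.62 to 3.41.

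The transcripts of most annexins are low in GC. GC content was 40.5% for ANXA10, 40.8% for ANXA1, 40.9% for ANXA4, 43.3% for ANXA5, 43.8% for ANXA7, 44.03% for ANXA3 and 46.5% for ANXA2, and it was 53.8% for ANXA6, 54.8% for ANXA8 and 55.5% for ANXA11. Across all genes the difference between the methods moved with GC content: the median log2 difference was -0.43 for genes from 40% to 42.5% GC and 0.10 for genes from 47.5% to 50%. Against the median of genes in the same GC bin, every one of the 9 counted annexins was still lower by LIEA, from -0.22 for ANXA2 to -2.55 for ANXA3. With this correction 5 members were again past 2-fold, with ANXA11 (-1.47) in and ANXA4 (-0.57) out. The share of all genes past 2-fold after the same correction was not computed. Across the 9 members, which are genes of the same 2 libraries and not replicates, Spearman's rho between GC content and the method difference was 0.333. The correction is a description, and the part of GC content in the annexin differences was not tested.

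**Figure D4:**
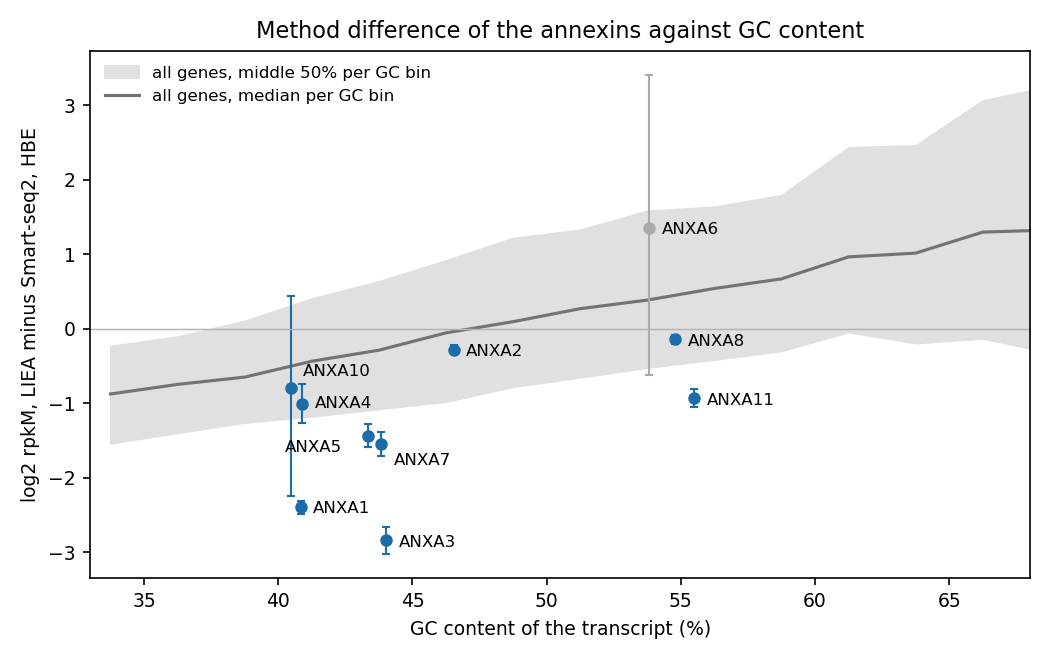
Log2 rpkM by LIEA minus log2 rpkM by Smart-seq2 in HBE (vertical axis) against GC content of the transcript in percent (horizontal axis) for the 10 annexins, with 95% counting intervals. The line and band are the median and the middle 50% of all genes per GC bin; ANXA3, ANXA1, ANXA7, ANXA5 and ANXA11 lie below the band, and the grey point is ANXA6, which was not counted.

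Set side by side, the differences between the cell lines and between the methods did not rank the members alike. ANXA8 was at -4.41 between the cell lines and -0.14 between the methods. ANXA3 was at -0.57 and -2.84. For ANXA1 the sizes were 1.62 and -2.39, so the difference between the methods was wider than that between the lines. ANXA2 was at 2.03 and -0.28, and ANXA4 at 3.90 and -1.003.

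The listed partners of the annexins give the family's context. This list held 13 genes, of which 10 were counted in the comparison of the cell lines by LIEA, with 5 at least 2-fold higher in A549, 1 lower and 4 within 2-fold, beside 20.3% and 20.9% of all genes counted. The median log2 difference was 1.31 over these partners and -0.13 over all genes counted. This list and the membrane repair list below were chosen with earlier results of these data known, so these contrasts are descriptions. S100A10, which joins ANXA2 in a heterotetramer, had 176 reads in HBE by LIEA (log2 rpkM 5.18), 1045 in A549 by LIEA (7.90) and 602 in HBE by Smart-seq2 (5.86), and was 2.72 higher in A549 on the log2 scale (2.49 to 2.96). ANXA2 and S100A10 were thus both higher in A549, and S100A10 was 8.47% of the ANXA2 rpkM in HBE by LIEA, 13.6% in A549 by LIEA and 11.2% in HBE by Smart-seq2. S100A11, the partner of ANXA1, had 588, 1057 and 8159 reads in the same order and a log2 difference of 0.995 (0.85 to 1.14), just under 2-fold.

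S100A4, another S100 protein that binds ANXA2, had 12 reads in HBE by LIEA (log2 rpkM 2.21), 3033 in A549 by LIEA (10.34) and 5 in HBE by Smart-seq2 (-0.15). Its difference between the LIEA libraries of 8.13 (7.32 to 9.08) was the widest of the list, and in A549 its rpkM was above that of every annexin except ANXA2. PRKCA, the protein kinase scaffolded by ANXA6, had 51, 1106 and 49 reads in the same order, a difference of 4.59 (4.18 to 5.02). ANXA6 and PRKCA were thus both low in HBE and higher in A549, while RASA1, the GTPase-activating protein that ANXA6 also recruits, was at -0.22 (-0.67 to 0.22).

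S100A6 was at 1.88 and SRC, the kinase that phosphorylates ANXA2, at 1.63. AHNAK, a scaffold that binds the complex of ANXA2 and S100A10, was the member of the list lower in A549 by at least 2-fold, at -1.13. SRI (sorcin, which binds ANXA7) was at -0.83 and PDCD6 (which binds ANXA7 and ANXA11) at -0.77. The formyl peptide receptors FPR1 and FPR2, through which ANXA1 acts, were listed in no library, which allows up to 0.651, 0.722 and 0.305 reads per 1000000 mapped reads (3 reads) in HBE by LIEA, A549 by LIEA and HBE by Smart-seq2. PLG, the plasminogen that ANXA2 with S100A10 binds at the cell surface, was listed in A549 only, with 8 reads.

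**Figure D5:**
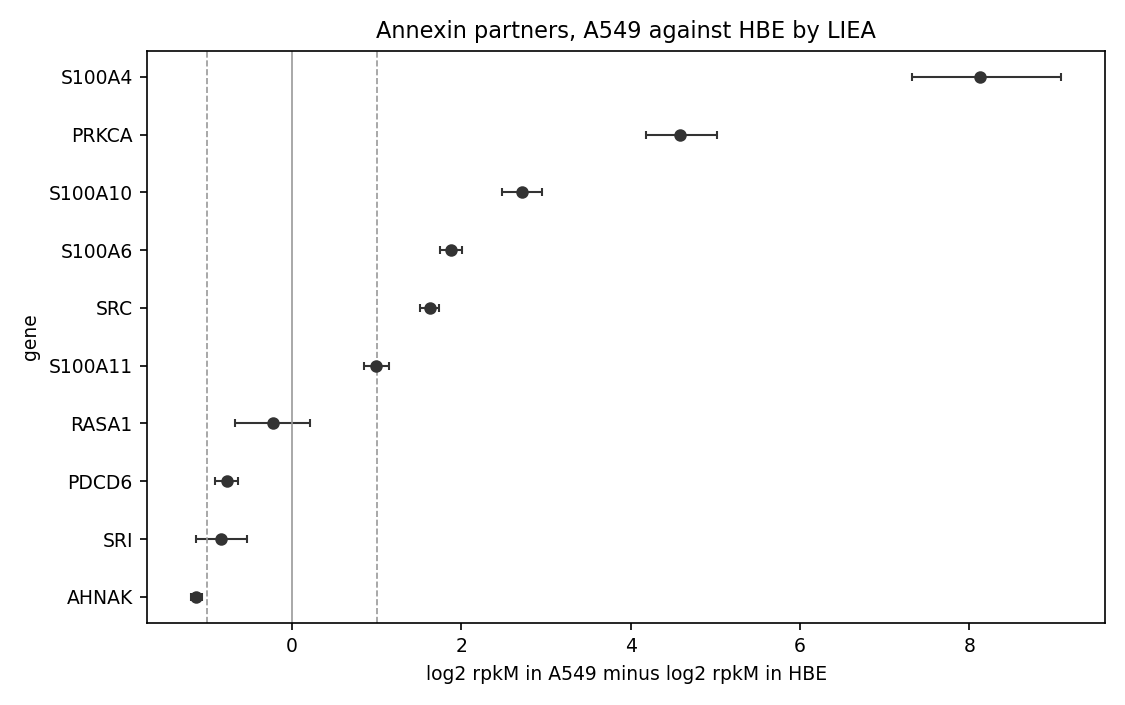
Log2 rpkM in A549 by LIEA minus log2 rpkM in HBE by LIEA (horizontal axis) for the 10 of 13 annexin partner genes that were counted (vertical axis). Points are differences between single libraries, bars are 95% counting intervals and dashed lines mark 2-fold; S100A4 (8.13) and PRKCA (4.59) lie farthest to the right and AHNAK (-1.13) lies lowest.

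Between the methods in HBE, 10 partners were counted, with 5 at least 2-fold higher by LIEA, 1 lower and 4 within 2-fold, beside 28.4% higher and 21.7% lower over all genes counted. The median log2 difference was 0.86, against 0.04 over all genes counted. S100A11, like its partner ANXA1, was lower by LIEA, at -2.70 (-2.82 to -2.58). The rpkM of S100A11 was 215 by LIEA and 1395 by Smart-seq2 in HBE, and 428 by LIEA in A549. For ANXA1 the rpkM was 179, 937 and 550 in the same order. Against ANXA2, which did not shift as much between the methods, S100A11 was 50.3%, 269% and 24.5% of the rpkM. The 5 above were AHNAK at 2.65, S100A4 at 2.36 (0.75 to 4.22, on 12 and 5 reads), SRC at 1.24, PRKCA at 1.15 and RASA1 at 1.05. S100A10 was at -0.68, SRI at -0.98, S100A6 at -0.33 and PDCD6 at 0.66.

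Annexins act with other proteins when a torn plasma membrane is sealed, and 10 genes of this process were listed beside them. By LIEA, 9 were counted between the cell lines, with 1 at least 2-fold higher in A549 and 3 lower, beside 20.3% and 20.9% of all genes counted, and a median log2 difference of -0.25 against -0.13 over all genes counted. CAPNS1, the small calpain subunit, was 2.30-fold higher. DYSF, dysferlin, had 170 reads in HBE by LIEA and 3 in A549 by LIEA and was at -5.68 (-7.97 to -4.10), CAV1, caveolin-1, was at -2.03 and CAPN1, a calpain, at -1.67. Between the methods all 10 were counted, with 3 at least 2-fold higher by LIEA, which were CHMP4B (6.25), CAPNS1 (5.79) and DYSF (2.89), and 1 lower, which was TRIM72 (-1.56, on 7 and 44 reads), beside 28.4% and 21.7% of all genes counted.

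The further family genes ANXA9 and ANXA13 differed between the cell lines in opposite directions. ANXA9, a member without the usual calcium-binding sites, had 125 reads in HBE by LIEA (log2 rpkM 3.90), 37 in A549 by LIEA (2.29) and 129 in HBE by Smart-seq2 (2.84), a difference between the cell lines of -1.61 (-2.18 to -1.07). It was lower in A549, like ANXA8, and, unlike the counted members of the family, higher by LIEA than by Smart-seq2 by 1.05 (0.68 to 1.42). ANXA13, a member known from intestinal epithelium, was named after its values were seen. It had 259 reads in A549 by LIEA (log2 rpkM 5.29), above ANXA6, ANXA3 and ANXA8 there, and was not listed in HBE by LIEA or by Smart-seq2. With HBE set to 3 reads, ANXA13 was 95.7-fold higher in A549 by LIEA, a log2 difference of 6.58. The lower limit of the counting interval, from 259 against 0 reads, was 6.27. The pseudogene ANXA2P2 had 9, 47 and 2 reads in the same order, under 0.5% of the ANXA2 rpkM in each library. ANXA2P1 had 8 reads in A549 and 2 in HBE by Smart-seq2, ANXA2P3 had 1 read in A549, and ANXA8L2 was not listed in any library.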

How the data were processed

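The authors kept Ion Torrent reads longer than 42 nt with Phred scores above 10, mapped reads with FANSe2 (version not given in the sources used here) to RefSeq-RNA, allowing 3 errors for Ion Torrent and 2 for Illumina reads, merged splice variants, and deposited log2 rpkM per gene. The labels name hg19. Names of some rows had become dates: those whose date occurred on several rows (4 rows in each library) were left out, and the others were kept. In the Smart-seq2 library 1589 rows without a name were also left out. These rows were not matched to genes, so a gene called not listed there was not listed under a name.

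Whole reads were recovered from the deposited log2 values: totals came from the 300 genes with the lowest rpkM (at least 70% giving whole lengths, tolerance 0.0001), and a whole factor from 1 to 12 shared by reads and length from GENCODE release 44 transcripts on GRCh37 (94.0% of genes matched by symbol). Whole reads were found for 18856 of 18856 genes (100%), and the factor was above 1 for 1541. For ANXA4 the reads could be a whole multiple of those given, which would narrow its intervals and leave log2 values as they are. In data simulated from the 3 libraries, all 3 totals and the reads of 96.0% of 18263 genes were recovered exactly. The simulation took the recovered lengths and factors as true, so it cannot show a wrong factor in the deposited data. A total of 12323, 12607 and 12939 genes had at least 10 reads in HBE by LIEA, A549 by LIEA and HBE by Smart-seq2. No difference was computed between A549 by LIEA and HBE by Smart-seq2, since line and method differ together.

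No test was run, with 1 library a condition. Differences are of log2 rpkM without a pseudocount; intervals are exact at the 95% level for counting error. GC bins were 2.5 percentage points wide. Named were all members, their copies and ANXA9 (ANXA13 was added after its values were seen), all partner genes, repair genes past 2-fold, and the 3 genes nearest to the highest and lowest member. The members and lists were chosen with earlier results of these data known. Alternatives were other scalings, pseudocount, read filters, folds, summed copies, and corrections for GC and length. Python 3.11.15, numpy 2.4.6, scipy 1.17.1 and matplotlib 3.10.9 were used.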

Additional observations from a re-analysis of the deposited data

How the results depend on the processing

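Of 170 values recomputed under alternatives, 62 were summaries of the family (52 moved by less than the set limit, 10 moved by more) and 108 were single members (76 and 32). With no filter on low values, 2 annexins were at least 2-fold lower in A549 than in HBE by LIEA, with ANXA10 added on 2 and 7 reads, and 1 was at least 2-fold higher by LIEA than by Smart-seq2, ANXA6, on 6 and 5 reads. With a 4-fold limit 2 annexins were lower by LIEA than by Smart-seq2, and at 2-fold against genes of similar transcript length 3 were (ANXA4 and ANXA5 lost). As a share of the summed rpkM the family took 0.266% in HBE by LIEA, 0.601% in A549 by LIEA and 0.510% in HBE by Smart-seq2, and without ANXA2 its share of mapped reads was 0.135%, 0.191% and 0.333%. The median of genes with at least 10 reads in both libraries was -0.16 between the cell lines and 0.10 between the methods, and rescaling to TPM moved all differences by -0.16 and 0.20. The count of annexins at least 2-fold higher in A549 was 3 with at least 10 reads required in both libraries and 4 under the other alternatives at 2-fold. It was 6 at a 1.5-fold limit and 3 at 4-fold. The share of all genes was computed only at 2-fold, as reported, so counts under the alternatives have no such share beside them. No paired analysis was possible because no condition had more than 1 library, and for the same reason no replicate could be left out. Members with under 10 reads, which were ANXA10 by LIEA and ANXA6 in HBE, are limited by depth.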
